A study of Mus musculus with 9 samples.

Results

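The genes examined here encode the proteasome, the protease complex that degrades ubiquitin-tagged proteins, together with the factors that assemble, activate or inhibit it. They were taken by name from the protein-coding genes of the expression table, as symbols that begin with Psma to Psmg followed by a digit, plus Pomp and Adrm1. This gave 50 genes of 19769 in the table, of which 15118 are protein-coding. They comprise 7 alpha and 7 constitutive beta subunits of the 20S core, 3 immunoproteasome beta subunits, 6 ATPase and 12 non-ATPase subunits of the 19S cap, 3 chaperones of 19S assembly, 6 activators or inhibitors, and 5 chaperones of 20S assembly. The remaining gene, Psmc3ip, matches by its letters but encodes a factor of meiotic recombination, and its values are given apart.

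The 20S core is a barrel of alpha and beta rings whose catalytic sites sit on Psmb5, Psmb6 and Psmb7. The 19S cap binds ubiquitin chains, removes them and unfolds the substrate with a ring of ATPases. In cells that receive interferon, Psmb8, Psmb9 and Psmb10 replace the catalytic subunits in newly made cores, and the Psme1–Psme2 ring can replace the cap, which changes the peptides that are passed to MHC class I. When the proteasome is blocked, mammalian cells raise their proteasome genes through NFE2L1, a transcription factor that binds antioxidant response elements.

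The cells were primary mouse embryonic fibroblasts (MEFs) of Myc-Egfp+/+ mice, in which both copies of Myc carry GFP at its own locus. All of them received MG-132, a proteasome inhibitor, at 20 µM for 6 h before they were sorted by fluorescence. The cells with weak GFP (low-MYC) and those with strong GFP (high-MYC) were then plated overnight and their polyadenylated RNA was sequenced. Both groups therefore carry the fusion and had the inhibitor, no unsorted or untreated cells are compared here, and the groups differ by where they fell in one fluorescence distribution. Each group has 2 libraries, which are technical replicates, so p-values measure the spread between libraries and not between cultures or mice. The other assays of the series, a ChIP-seq of FUBP1 and a TACh-seq map of nuclease-accessible chromatin in wild-type and Fubp1/Fubp2-depleted MEFs, bear on these genes only as far as stated at the end.

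The values are fragments per kilobase of transcript (FPK) divided by the level of spiked-in RNA, which had been added in proportion to cell number, so they stand for mRNA per cell and can be compared between genes. They summed to 46321 and 48291 in the low-MYC libraries and to 102853 and 109090 in the high-MYC libraries. No read counts were used and how deeply each library was sequenced is unknown. The fibroblast identity of the labels was matched by the marker list, as the normalized FPK of 12 fibroblast markers summed to 344 and 349 in low-MYC cells and to 826 and 843 in high-MYC cells. Summed over 18 macrophage markers, it was 0.968 and 1.32 in the low-MYC libraries and 30.5 and 31.9 in the high-MYC libraries, with 13 of the 18 below a mean of 0.01 in low-MYC cells. The 5 endothelial markers listed summed to at most 0.328 in any library. In bulk RNA, fewer cells of a type cannot be told apart from less RNA per cell.

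Per cell, the proteasome genes were about 2-fold higher in high-MYC cells as one block, and so was most of the transcriptome. The summed normalized FPK of the 50 genes was 220 and 225 in the low-MYC libraries and 463 and 488 in the high-MYC libraries. As a share of each library's total, this was 0.474% and 0.467% in low-MYC and 0.450% and 0.447% in high-MYC cells, so the share was lower in both high-MYC libraries. In all 50 genes both high-MYC libraries lay above both low-MYC libraries, which was also the case for 99% of all genes tested.

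A gene was tested if its mean over the 4 libraries was at least 0.1, and log2(normalized FPK + 0.1) was compared by limma with Benjamini-Hochberg adjustment over the 11870 genes that passed. Of the 50 genes, 49 passed and Psmb9 did not. All 49 were called higher in high-MYC cells at an adjusted p under 0.01, beside 97.1% of all genes tested, and 0 were called lower, beside 0.0253%. At an unadjusted p under 0.05, 0 of them were lower. At least a 2-fold difference was reached by 37 of the 49, beside 55.1% of all genes tested. This count depends on the scale and on 1 library, and the share of all genes moved with it. It was 46 (beside 84.9% of all genes tested) with a pseudocount of 0.01, 10 (beside 12.2%) with a pseudocount of 1, and 24 (beside 47.9%) without high-MYC replicate 2. Among genes with a mean of at least 1 it was 35 of 42, beside 85.2% of all such genes, so the proteasome genes did not stand out there. The median log2 difference of the 49 genes was 1.06, and that of all genes tested was 1.03. Among genes with a mean of at least 1, where the pseudocount weighs less, the medians were 1.06 for the proteasome genes and 1.12 for all genes.

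The proteasome genes kept closely similar levels relative to each other in both groups. Across the 50 genes, the log2 mean levels of low-MYC and high-MYC cells had a Pearson r of 0.998 and a Spearman rho of 0.996, given as a description across genes that share libraries. Without a pseudocount, the high-MYC mean over the low-MYC mean had a median of 2.12 and ran from 1.88 for Psmd11 to 2.58 for Psmc3ip among the tested genes, and was 3.599 for Psmb9. In the plot of levels in each library, the rows of the tested genes shift by similar amounts and that of Psmb9 by more.

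**Figure D1:**
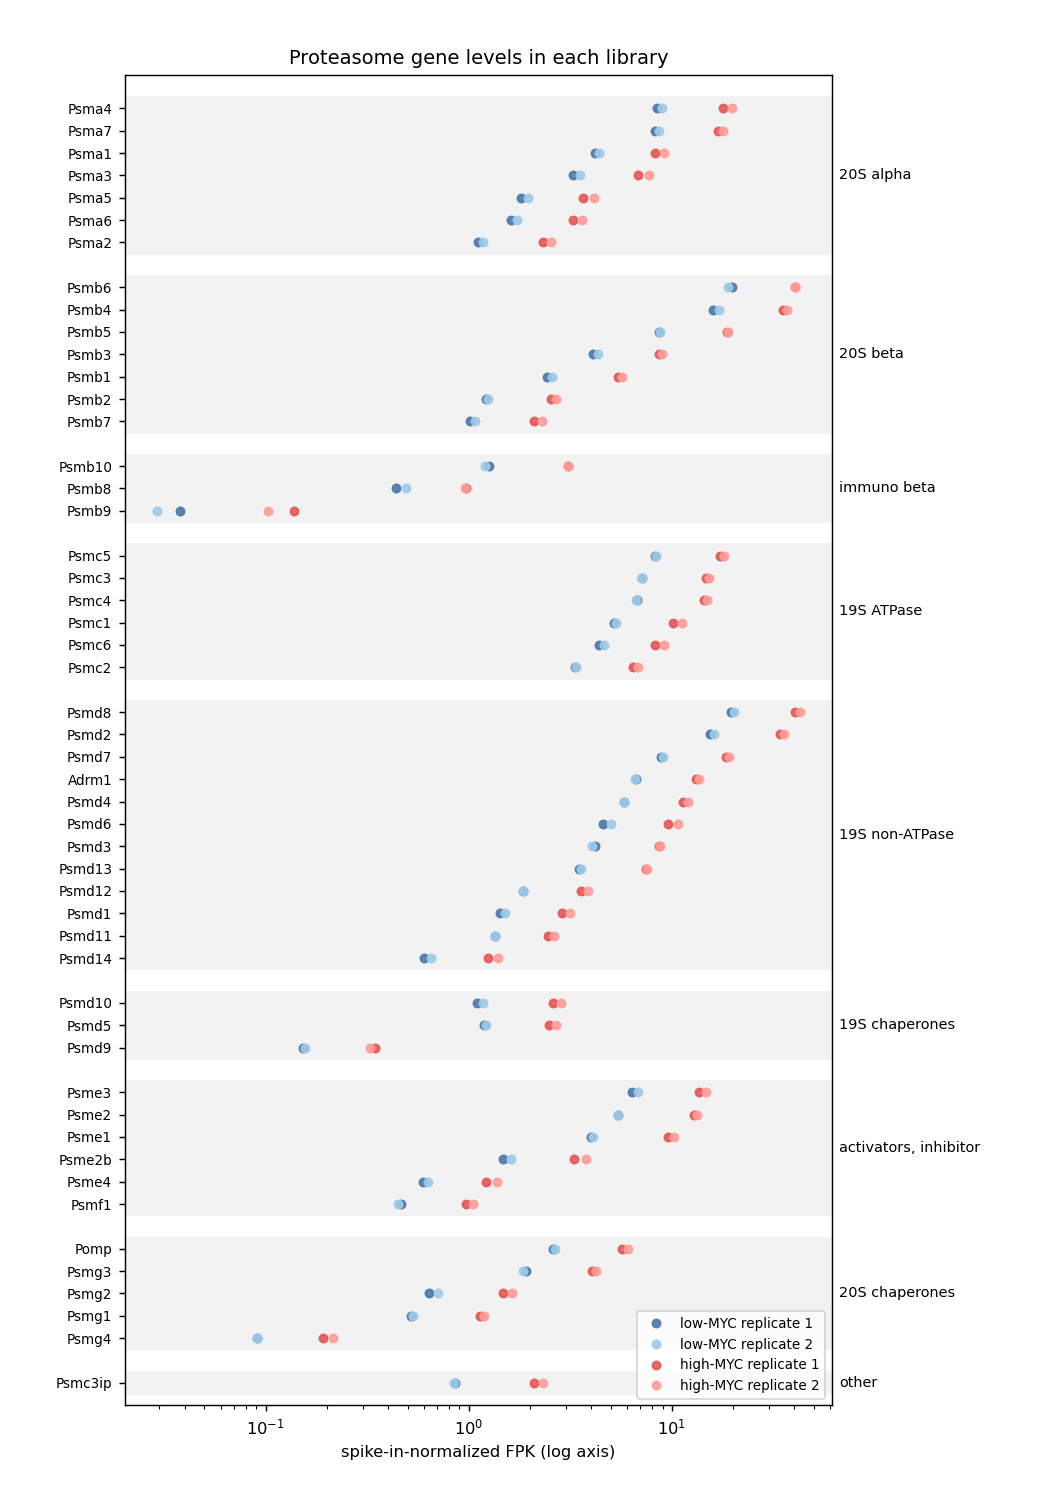
Level of each proteasome gene in each library, as spike-in-normalized FPK on a log axis, grouped by class and ordered by mean level within a class; blue points are the 2 low-MYC libraries and red points the 2 high-MYC libraries. In all 50 genes both red points lie to the right of both blue points, and the lowest row is Psmb9 at 0.0292 to 0.138.

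Within the 20S core the subunits form rings of equal stoichiometry, yet their mRNA levels per length were far from equal. Psma4, the highest alpha subunit mRNA, had a normalized FPK of 8.43 and 8.90 in low-MYC and of 17.8 and 19.9 in high-MYC cells. Psma2, the lowest alpha subunit mRNA, had 1.11 and 1.17 against 2.33 and 2.53. The level of Psma4 was 7.71 times that of Psma2, and in each gene the high-MYC libraries were above the low-MYC ones with no overlap. The log2 difference was 1.11 ± 0.0661 (SE, adjusted p = 2.12e-05 by limma) for Psma4 and 1.03 ± 0.0599 (adjusted p = 2.00e-05 by limma) for Psma2.

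The 3 constitutive catalytic subunits differed widely in level and little in their response. Psmb5, the chymotrypsin-like subunit and a main target of MG-132, had 8.69 and 8.79 normalized FPK in low-MYC and 18.74 and 18.96 in high-MYC cells. Psmb6, the caspase-like subunit and the highest core mRNA, had 19.7 and 18.9 against 40.5 and 40.5. Psmb7, the trypsin-like subunit and the lowest core mRNA, had 1.02 and 1.07 against 2.10 and 2.30.

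The high-MYC libraries of all 3 catalytic subunits were above the low-MYC libraries, with log2 differences of 1.10 ± 0.0391 for Psmb5, 1.06 ± 0.0432 for Psmb6 and 1.01 ± 0.0615 for Psmb7 (SE). The level of Psmb6 was 18.4 times that of Psmb7. When the 14 constitutive core subunits were ordered by mean level, 11 of the 13 neighbouring pairs kept their order in all 4 libraries. Psmb5 and Psma4 exchanged places between libraries, as did Psmb3 and Psma1, so the members of these pairs are not separated in level.

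The 6 ATPases of the 19S cap, which unfold substrates and open the core, were closer to each other in level than the subunits of any other class. Psmc5, the highest, had 8.29 and 8.32 normalized FPK in low-MYC and 17.25 and 18.04 in high-MYC cells. Psmc2, the lowest, had 3.35 and 3.37 against 6.41 and 6.79. The level of Psmc5 was 2.61 times that of Psmc2, and neither gene's groups overlapped.

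The 12 non-ATPase subunits of the cap spanned a 31.6-fold range. Psmd8, a lid subunit with the highest mean of all 50 genes, had 19.5 and 20.2 normalized FPK in low-MYC and 40.6 and 42.7 in high-MYC cells. Psmd14, the lid enzyme that cuts ubiquitin chains from substrates, was the lowest of its class with 0.606 and 0.649 against 1.25 and 1.39. Psmd11, a lid subunit, had 1.34 and 1.35 against 2.45 and 2.63. The groups of all 3 genes were apart, and Psmd11 had the smallest log2 difference among the core and cap subunits, 0.87 ± 0.0523 (SE, adjusted p = 2.22e-05 by limma).

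The mean level of the 19S subunits stayed near that of the constitutive 20S subunits within each library, a ratio that does not depend on how libraries are scaled. It was 1.03 in both low-MYC libraries and 1.01 and 1.02 in the high-MYC libraries, a log2 difference of -0.02. The groups did not overlap. With 2 libraries per group, an exact two-sided permutation test cannot give a p below 0.333, which is the value it gave here (0.417 after adjustment over the 5 ratios examined).

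Assembly factors were present at lower levels. Pomp, which guides the beta ring onto the alpha ring, was the highest 20S chaperone with 2.59 and 2.65 normalized FPK in low-MYC and 5.71 and 6.12 in high-MYC cells. Psmg4, a chaperone of the alpha ring, was the lowest with 0.0910 in each low-MYC library against 0.192 and 0.216. Both genes were higher in both high-MYC libraries, and the log2 difference was 1.14 ± 0.0514 for Pomp and 0.67 ± 0.0650 for Psmg4 (SE). Psmg4 had the smallest log2 difference of the 49 tested genes, but its level is near the pseudocount, which shrinks a difference, and its ratio of means was 2.24.

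Of the 19S chaperones, which bind the ATPases before the cap is complete, Psmd10 (gankyrin) was the highest, at 1.09 and 1.18 normalized FPK in low-MYC and 2.60 and 2.84 in high-MYC cells. Psmd9 was the lowest, at 0.154 and 0.156 against 0.347 and 0.327, with a log2 difference of 0.78 and a ratio of means of 2.18. Both genes were higher in both high-MYC libraries.

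Because nearly every gene was higher per cell, the proteasome genes were also tested relative to the median gene, after each library was divided by its median over the tested genes. On this scale the core and cap subunits sat slightly below the typical gene and the immune-type activator above it, by amounts that did not pass the threshold for any single gene. Of the 49 genes, 0 were called higher at an adjusted p under 0.01 by limma, beside 1.76% of all genes tested, and 0 were called lower, beside 0.531%. The median log2 difference was -0.09, and the 5th and 95th percentiles of all genes tested were -0.23 and 0.33.

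The direction was shared among the subunits of the core and cap. Below the median of all genes tested lay all 32 constitutive 20S and 19S subunits, with log2 differences from -0.25 to -0.03 and a median of -0.11. The medians were -0.12 for the alpha subunits, -0.09 for the constitutive beta subunits, -0.13 for the ATPases and -0.11 for the non-ATPases. At an unadjusted p under 0.05, 19 of the 49 genes were lower, beside 15.8% of all genes tested, and all 19 were among these 32 subunits. At the same p, 3 of the 49 were higher, beside 17.3%. Both high-MYC libraries lay below both low-MYC libraries in 35 of the 49 genes (71.4%), beside 32.6% of all genes tested. Among genes with a mean of at least 1 this held for 31 of 42 proteasome genes (73.8%), beside 34.1% of all such genes.

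At a looser adjusted p under 0.05, 7 of the 49 genes were lower relative to the median gene, beside 5.08% of all genes tested. They were the lid subunits Psmd11 and Psmd12, the ATPases Psmc2 and Psmc6, the ubiquitin receptors Psmd4 and Adrm1, and the alpha subunit Psma7. Psmd11 had relative levels of 2.22 and 2.18 in low-MYC and of 1.82 and 1.84 in high-MYC cells, a log2 difference of -0.25 ± 0.0274 (SE, adjusted p = 0.0162 by limma). Psmc2 had relative levels of 5.53 and 5.44 against 4.77 and 4.74, a log2 difference of -0.20 ± 0.0267 (SE, adjusted p = 0.0246 by limma). Both high-MYC libraries of these 2 genes were below both low-MYC libraries. The log2 differences of the other 5 ran from -0.22 for Psmc6 to -0.14 for Psma7, with adjusted p-values from 0.0343 to 0.0498 by limma. When any single library was left out, 0 of the 49 genes passed an adjusted p under 0.01 and 0 to 11 genes of the whole table did, so calls on this scale need all 4 libraries.

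The relative log2 differences of the chaperones, of Psmf1 and of the activators other than Psme1 and Psme2 ran from -0.09 for Psme4 to 0.07 for Psmd10, and no test compared them with those of the core and cap. The median relative log2 difference was -0.01 for the 20S chaperones and -0.04 for the 19S chaperones, and for Pomp it was -0.01 with a 95% interval from -0.08 to 0.07. Psme3, the nuclear activator and the highest of its class, had 6.36 and 6.80 normalized FPK in low-MYC and 13.5 and 14.8 in high-MYC cells, and its relative log2 difference was -0.07. Psmf1, which encodes the inhibitor PI31 and was the lowest of this class, had 0.466 and 0.446 against 0.972 and 1.05, and its relative log2 difference was -0.02. The spike-in-normalized levels of both were higher in both high-MYC libraries, and the relative levels of Psmf1 overlapped between groups.

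**Figure D2:**
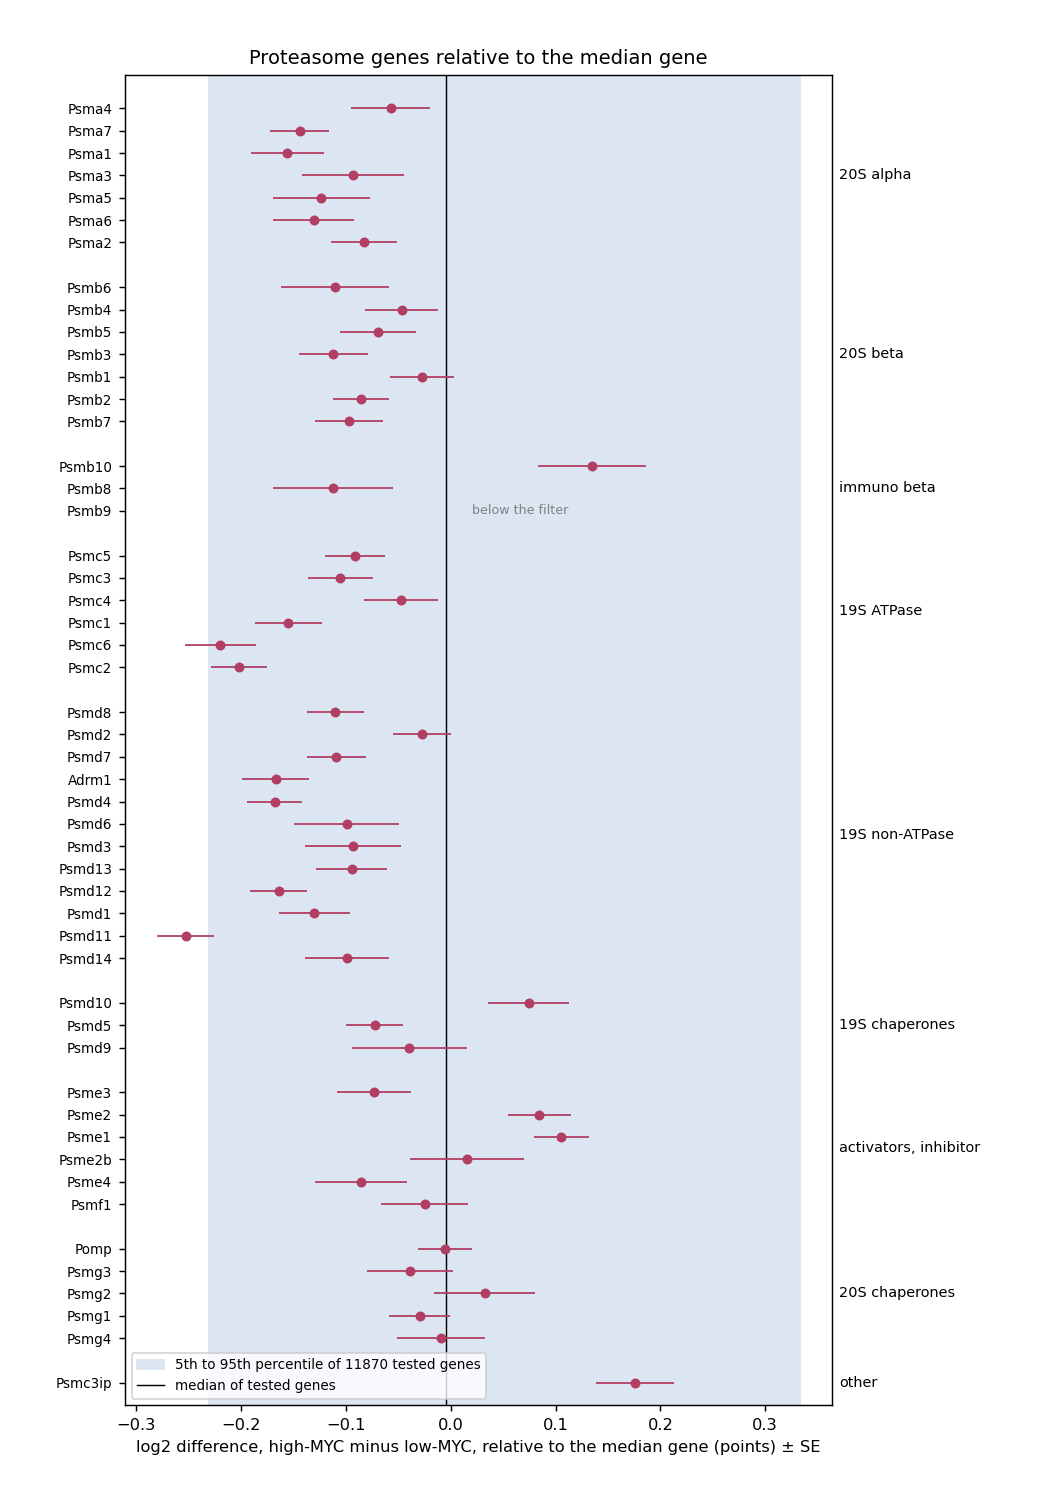
Log2 difference between high-MYC and low-MYC cells relative to the median gene, with its standard error (bars), for each proteasome gene by class; the vertical line is the median of all 11870 tested genes and the shaded band their 5th to 95th percentile. All 32 constitutive 20S and 19S subunits lie left of the line, and Psmc3ip, Psmb10 and Psme1 lie farthest to its right.

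The 3 immunoproteasome subunits were all higher per cell. Psmb8, which replaces Psmb5, had 0.440 and 0.490 normalized FPK in low-MYC and 0.970 and 0.955 in high-MYC cells. Psmb10, which replaces Psmb7, had 1.26 and 1.20 against 3.07 and 3.08. Psmb9, which replaces Psmb6, had 0.0377 and 0.0292 against 0.138 and 0.103. Each was higher in both high-MYC libraries, by a log2 difference of 0.91 ± 0.0618 for Psmb8 and 1.25 ± 0.0463 for Psmb10 (SE). When the filter on low values was dropped, all 3 were called higher, beside 14232 of the 19769 genes tested in that setting. The values of Psmb9 are near the pseudocount of 0.1.

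The levels of these subunits relative to the ones they replace spanned a wide range. The ratio of Psmb8 to Psmb5 was 0.0507 and 0.0558 in low-MYC and 0.0517 and 0.0504 in high-MYC cells, so the groups overlapped (exact two-sided permutation p = 0.667). The ratio of Psmb9 to Psmb6 was 0.00191 and 0.00154 against 0.00341 and 0.00254, which was 1.71-fold higher. The ratio of Psmb10 to Psmb7 was 1.24 and 1.12 against 1.46 and 1.34, which was 1.18-fold higher.

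For Psmb9 and Psmb10 the high-MYC ratios were above the low-MYC ratios in every library, with an exact permutation p of 0.333, the smallest this design allows. Adjusted over the 5 ratios, p was 0.417 for these and 0.667 for Psmb8. Psmb9 was so low that a pseudocount of 0.1 turned the direction of its log2 ratio from 0.776 to -0.344. Relative to the median gene, the log2 difference was 0.13 for Psmb10 (95% interval -0.01 to 0.28) and -0.11 for Psmb8 (95% interval -0.27 to 0.05).

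Psme1 and Psme2, whose proteins form the PA28 activator ring, had similar values and are neighbours on chromosome 14, where 5911 bases separate them (mm10). Psme1 had 4.02 and 4.09 normalized FPK in low-MYC and 9.52 and 10.3 in high-MYC cells. Psme2 had 5.44 and 5.46 against 12.9 and 13.3. Their log2 differences, 1.27 ± 0.0515 and 1.25 ± 0.0416 (SE, both adjusted p = 1.04e-05 by limma), stood with those of Psmc3ip and Psmb10 at the top of the 49 genes. Relative to the median gene the log2 difference was 0.11 (95% interval 0.03 to 0.18, adjusted p = 0.0756 by limma) for Psme1 and 0.08 (adjusted p = 0.145 by limma) for Psme2.

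The mean of Psme1 and Psme2 over the mean of the constitutive 20S subunits was 0.809 and 0.793 in the low-MYC libraries and 0.909 and 0.913 in the high-MYC libraries. It was 1.14-fold higher in high-MYC cells with no overlap, again with an exact permutation p of 0.333 (0.417 adjusted). Psme2b, a copy of Psme2 on chromosome 11 whose transcript is 99.4% identical over 794 aligned bases, could share reads with it, so the split of values between these 2 genes is uncertain. The mean of Psme2b was 1.54 ± 0.0908 normalized FPK in the low-MYC libraries and 3.54 ± 0.348 in the high-MYC libraries (SD, n = 2).

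Both high-MYC libraries were above both low-MYC libraries on the relative scale in 5 of the 49 tested genes, beside 30.7% of all genes tested, and these were Psmd10, Psme1, Psme2, Psmb10 and Psmc3ip. Psmc3ip, which is no proteasome subunit, had 0.859 and 0.846 normalized FPK in low-MYC and 2.09 and 2.31 in high-MYC cells. Its log2 difference of 1.27 was the highest of the 49, and it was 0.18 ± 0.0375 relative to the median gene (SE, adjusted p = 0.0588 by limma). Without Psmc3ip, the median of the remaining tested genes was 1.05 on the spike-in scale and -0.09 relative to the median gene.

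**Figure D3:**
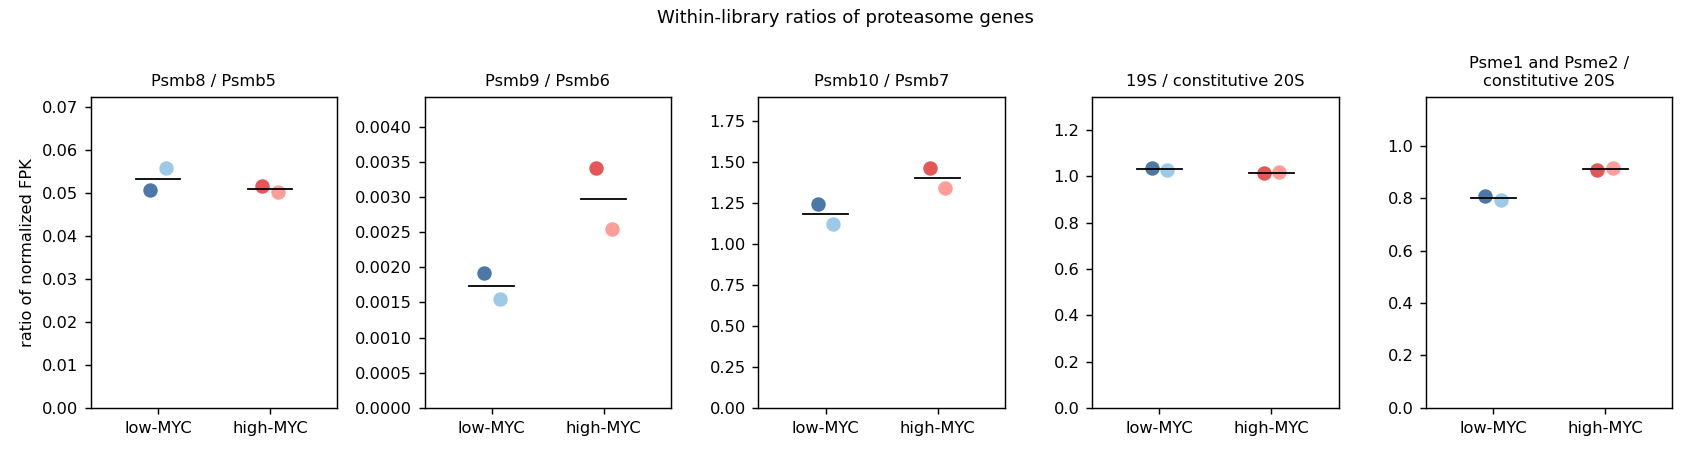
Ratios of normalized FPK within each library, 1 panel per ratio with its axis from 0; points are libraries and lines are group means, for low-MYC (blue) and high-MYC (red). The groups overlap for Psmb8 to Psmb5, the 19S to 20S ratio stays between 1.01 and 1.03, and the ratio of Psme1 and Psme2 to the core is at most 0.809 in a low-MYC library and at least 0.909 in a high-MYC library.

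Genes of antigen presentation, which use the peptides of the immunoproteasome, were above the median gene as a list, and so were fibroblast markers. Of 9 listed genes 8 could be tested, and all 8 had a positive relative log2 difference, with a median of 0.16. Of 12 fibroblast markers tested, 10 lay above the median of all genes, with a median of 0.30. Of the 12, 3 were called higher, beside 1.76% of all genes tested. Among the antigen presentation genes, 1 was called higher at an adjusted p under 0.01, beside 1.76% of all genes tested. It was H2-D1, an MHC class I heavy chain, with 4.82 and 4.92 normalized FPK in low-MYC and 16.3 and 16.1 in high-MYC cells. Its relative log2 difference was 0.55 (adjusted p = 0.00988 by limma). The peptide transporter genes Tap1 and Tap2, which lie beside Psmb9 and Psmb8, had relative log2 differences of 0.11 and 0.02, and the interferon-responsive factor Irf1 had 0.33, none of them past this threshold. Macrophages also express the immunoproteasome, PA28 and MHC class I, and the summed macrophage markers given above were higher in high-MYC cells. Of 12 macrophage markers tested, 11 were called higher relative to the median gene, beside 1.76% of all genes tested, with a median of 1.90. Most of the 12 passed the filter only through their high-MYC values, so these calls and this median follow largely from the filter. Cd68 and Cd14, which also pass on their low-MYC values, had 1.62 (adjusted p = 0.00398 by limma) and 1.04 (adjusted p = 0.0214 by limma). Whether macrophages contribute to the values of Psmb8, Psmb9, Psmb10, Psme1 and Psme2 was not tested. Of these, Psmb8 lay below the median gene, with a relative log2 difference of -0.11.

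Among 22 partners and regulators of the proteasome, 21 were in the table and all 21 were called higher per cell, beside 97.1% of all genes tested. Relative to the median gene their median log2 difference was -0.06. At an adjusted p under 0.01, 0 were called higher, beside 1.76% of all genes tested, and 1 was called lower, beside 0.531%. The one called lower was Zfand2a (AIRAP), a stress-induced proteasome-binding protein, with 1.75 and 1.80 normalized FPK in low-MYC and 2.87 and 3.08 in high-MYC cells (relative log2 difference -0.42, adjusted p = 0.00605 by limma). Its relative Zfand5 had -0.30 (adjusted p = 0.0296 by limma), which did not pass.

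The factor that drives proteasome genes after inhibition, Nfe2l1, had 12.6 normalized FPK in each low-MYC library and 28.7 and 29.8 in the high-MYC libraries, a relative log2 difference of 0.03. Ddi2 and Ngly1, which process its protein, had -0.02 and 0.11. Nfe2l2, a related factor of the antioxidant response, had 1.73 in each low-MYC library against 4.58 and 4.88 and a relative log2 difference of 0.26 (adjusted p = 0.0147 by limma), short of the threshold. These are mRNA levels and say nothing of the activity of either factor, which is set largely on the protein.

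**Figure D4:**
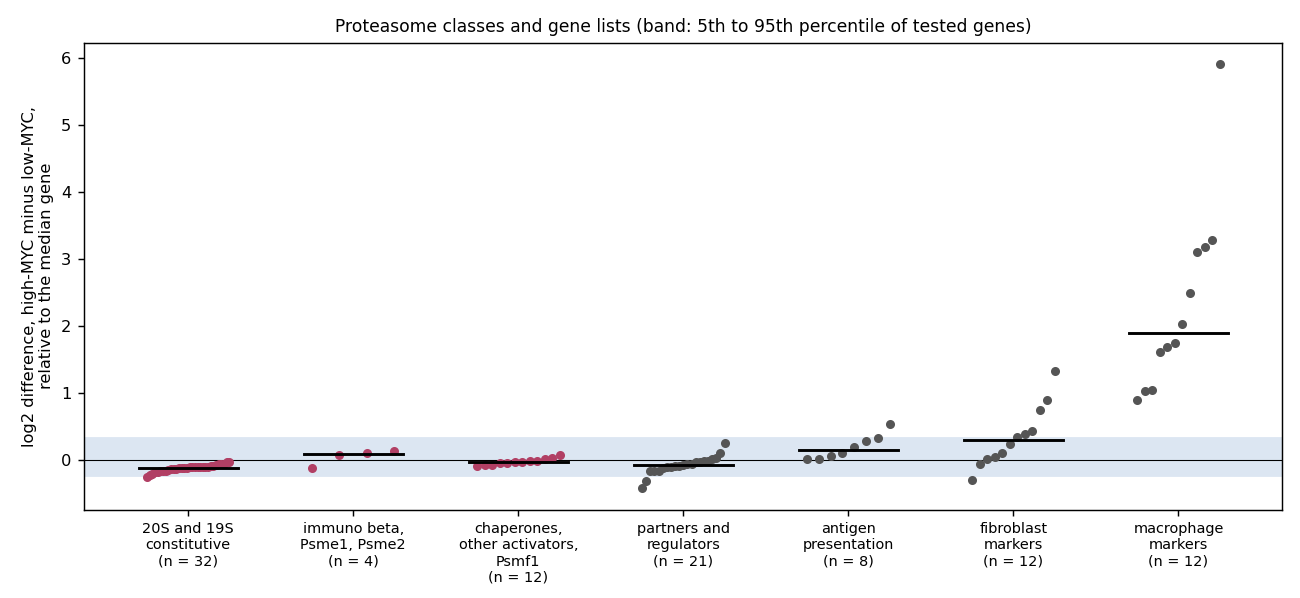
Log2 difference between high-MYC and low-MYC cells relative to the median gene (vertical axis) for each tested gene of 3 groups of proteasome genes (red) and 4 gene lists (grey); bars are medians and the band holds the 5th to 95th percentile of the 11870 tested genes. The constitutive 20S and 19S subunits lie below 0 with a median of -0.11, antigen presentation genes above it with a median of 0.16, and macrophage markers far above it with a median of 1.90. Most of the macrophage markers passed the filter only through their high-MYC values.

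Promoter sequence was read from RefSeq windows of GRCm38.p6 that run from 250 bases before to 50 bases after the start of a gene, of which 46 windows matched 43 of the 50 genes. The core of the antioxidant response element, TGACNNNGC on either strand, was in 7 of the 46 windows (15.2%) beside 12.4% of all 32851 promoters and 14.3% of the promoters of expressed protein-coding genes (mean of at least 0.1). These 5 stretches, all on the strand of their gene, are shown because they carry the element of the factor that raises proteasome genes after inhibition, in 2 catalytic subunits and in 3 of the 7 genes that were lower at an adjusted p under 0.05 on the relative scale. Capitals mark the match, and the stretches lie at chr14:54618014-54618062 (Psmb5, minus strand), chr11:70525328-70525356 (Psmb6, plus), chr2:180171406-180171454 (Adrm1, plus), chr14:45329577-45329625 (Psmc6, plus) and chr11:107479278-107479309 (Psmd12, plus).
Psmb5: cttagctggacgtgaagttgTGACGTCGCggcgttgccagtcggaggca
Psmb6: cagaggcggactaaagagagTGACGGAGC
Adrm1: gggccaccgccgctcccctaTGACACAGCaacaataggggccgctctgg
Psmc6: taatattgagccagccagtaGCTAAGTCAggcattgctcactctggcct
Psmd12: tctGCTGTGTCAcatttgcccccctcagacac

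The match in Psmc6 and in Psmd12 reads on the opposite strand. A match is a description of the letters and not a site of binding. Of the 5 genes printed, the high-MYC libraries of all 5 were higher per cell, beside 99% of all genes tested. The relative log2 differences of these 5 ran from -0.22 for Psmc6 to -0.07 for Psmb5. All 5 are themselves constitutive subunits, and 3 were picked for being lower, so this range says nothing of the element. The windows of Psmd9 and Psme4 also held it, and these genes had relative log2 differences of -0.04 and -0.09.

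The E-box CACGTG, a palindrome that MYC can bind, was in 4 of the 46 windows (8.70%) beside 7.15% of all promoters and 10.3% of those of expressed genes. The stretches of Psmb10, at chr8:105938483-105938528 on the minus strand, and of Psma4, at chr9:54950699-54950744 on the plus strand, are shown. Both genes are the highest of their classes, and Psmb10 was among the 3 largest log2 differences. Psme3 is also the highest of its class and holds an E-box, but its log2 difference was smaller and its stretch is not shown. Capitals mark the E-box.
Psmb10: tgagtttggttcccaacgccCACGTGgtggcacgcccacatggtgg
Psma4: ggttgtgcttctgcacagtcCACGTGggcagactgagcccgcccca

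The log2 difference on the spike-in scale was 1.25 for Psmb10 and 1.11 for Psma4, and the other windows with an E-box, those of Psmd9 and Psme3, had 0.78 and 1.09. The level of Psmd9 is near the pseudocount, which shrinks its log2 difference. Without a pseudocount, the high-MYC mean over the low-MYC mean was 2.50 for Psmb10, 2.18 for Psma4, 2.18 for Psmd9 and 2.15 for Psme3. Whether the E-box relates to these values was not tested. The interferon-stimulated response element was in 5 windows (10.9%) beside 3.44% of all promoters and 2.91% of those of expressed genes. These were the windows of Psmb3, Psmd4, Psmd9, Psme1 and Psmg4, and of these Psme1 alone is a gene of the immune-type proteasome. The gamma-activated site TTCNNNGAA was in 3 windows (6.52%) beside 8.30% and 6.62%, and 1 of them was that of Psmb8. CCAAT was in 15 windows (32.6%) beside 37.4% and 38.4%. The NF-kB motif was in 26 (56.5%), above the 50.8% of all promoters and below the 68.3% of those of expressed genes. All were searched on both strands, and matches of different motifs could overlap.

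The genes lie on 16 chromosomes, with 10 on chromosome 11 and 7 on chromosome 2. Psmb9 and Psmb8 are neighbours on chromosome 17 (mm10), where Psmb9 spans 34181987 to 34187764 on the minus strand and Psmb8 spans 34197721 to 34201454 on the plus strand. None is on chromosome 15, the chromosome that holds all 166 listed FUBP1 peaks, so 0 of the 50 genes could carry a listed peak. Another gene of the table on the same strand overlapped 4 of the 50, and 9 more were overlapped only on the other strand, among them Psmb9 by Tap1. Values of overlapping genes can include reads of the neighbour where the counting did not use strand.

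The TACh-seq list holds 4881417 reads and no column that names a library. Its title points to a wild-type library and to peaks, but it is given for all 4 TACh-seq samples. Which MEFs the reads come from is therefore not known, and wild-type and depleted MEFs are not compared here. At least 1 read fell in a promoter window of 39 of the 43 genes with a window (90.7%), beside 88.8% of protein-coding genes with a mean expression of at least 0.1 and 33.8% of those below it. Reads were counted over 300 bases per window, and the median was 78 reads for the proteasome genes and 65 for the expressed genes. The highest count was 285 at Psme2, and the windows of Psmf1, Psmd9, Psmg3 and Psme2b had 0. Whether reads outside called peaks were listed is not known, so a count of 0 may only mark a window outside a peak. Among the immunoproteasome genes, Psmb9 had 133 reads, Psmb10 21 and Psmb8 10, an order that did not follow their mRNA levels, since Psmb9 was the lowest of the 3. Tap1 overlaps Psmb9 on the other strand, so reads at that window may not belong to Psmb9 alone. The reads also come from other MEFs than the sorted, MG-132-treated cells whose mRNA was measured.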

How the data were processed

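The 4 RNA-seq libraries, a pair of technical replicates for low-MYC and for high-MYC MEFs, were analysed from the deposited table. The authors trimmed 3′ bases of quality below 20, aligned reads to mm10 with TopHat, quantified them with the Partek E/M algorithm, and divided by transcript length and by the geometric mean of 10 ERCC transcripts. The deposited signal values are therefore per cell and not per library, and versions are not given in the sources used here. Read depth is unknown, so no counting error is given.

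Log2(normalized FPK + 0.1) was fitted with limma 3.58.1 (lmFit, eBayes with trend) in R 4.3.3, keeping genes whose mean reached 0.1, adjusted over all genes tested, and again after each library was divided by its median and multiplied by the mean of the 4 medians. Calls were made at an adjusted p under 0.01. Within-library ratios were compared by exact permutation. The procedure was tested on simulated data. Libraries were not paired by replicate number in the main fit. The proteasome genes, classes and gene lists were chosen with earlier results of these data known. Values in every library are given for Psmb5 to Psmb10, the highest and lowest gene of each class, the 3 largest and 3 smallest log2 differences and genes below the filter, and those of Psme2 and of list genes were added after their values were seen.

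The TACh-seq file, aligned by the authors with Bowtie2, holds a mapping score and a length per read and no library. It was counted over 300-base RefSeq promoter windows. The FUBP1 peak list, called by the authors with SICER, holds positions only. Psma8, Psmb11 and Paaf1 are not analysed here, and 1 gene of the antigen presentation list is not reported here. Other settings tried were the scaling, class medians, the pseudocount, the limma trend, the filter, the threshold, the replicate block and leaving out each library. Python 3.11.15, pandas 2.3.3 and matplotlib 3.10.9 served for the rest.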

Additional observations from a re-analysis of the deposited data

How the results depend on the processing

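On the spike-in scale, all 49 genes kept their call under the other pseudocounts, without the filter, without the trend and with each library left out, and with a minimum mean of 1 the 42 genes that could be tested kept it. Rescaling each library to the same median left 0 called higher and a median of -0.0912, since that removes the shift of all genes. The median was 0.88 with a pseudocount of 1 and 0.99 to 1.08 with a library left out. Relative to the median gene, the median stayed negative in each alternative, at -0.0638 with a pseudocount of 1, -0.0761 with equal totals, -0.104 with equal upper quartiles and -0.0934 to -0.0769 with a library left out. With a minimum mean of 1, 1 of the 42 genes was called lower (Psmd11, -0.25), beside 125 of all 5608 such genes, a similar share. At an adjusted p under 0.05, 7 of the 49 were lower, beside 5.08% of all genes tested. Pomp turned to 0.00956 with equal totals. With a library left out, the relative log2 difference changed sign for Psme2b (-0.0382 to 0.0693), Psmf1 (-0.0665 to 0.0168), Psmg2 (-0.0196 to 0.0848), Psmg3 (-0.0822 to 0.00484), Psmg4 (-0.0312 to 0.0131), Pomp (-0.0107 to 0.000158) and Psmd9 (-0.100 to 0.0216). Log2 ratios were -0.188 for Psmb8 to Psmb5 and -0.344 for Psmb9 to Psmb6 with a pseudocount of 0.1, and with class medians -0.00480 for 19S to 20S and 0.22 for Psme1 and Psme2 to 20S. With a library left out they ran from -0.127 to 0.0110 for Psmb8, 0.565 to 0.988 for Psmb9, 0.172 to 0.316 for Psmb10, -0.0246 to -0.0143 for 19S and 0.171 to 0.200 for Psme1 and Psme2. Unknown depth limits what can be said of Psmb9, Psmg4 and Psmd9.

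The main fit did not pair the libraries by replicate number, and the labels do not say whether these numbers pair them. The deviations of the replicates correlated by 0.0810 between groups across genes, which over 2 pairs cannot settle this. With the replicate block, 49 genes were called higher on the spike-in scale, and relative to the median gene 0 of the 49 and 0 genes of the whole table were called.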
